A study of Mus musculus with 16 samples.

Results

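The 10 genes described here encode enzymes of glycolysis and of lactate formation: Hk1, Gpi1, Pfkl, Aldoa, Tpi1, Gapdh, Eno1, Pkm, Ldha and Ldhb. They were taken by name from a list and all 10 were found among the 21887 protein-coding genes of the RefSeq table of GRCm38 on chromosomes 1 to 19, X and Y. The list was drawn up with the peak lists already examined: the genes were chosen by name with the number, covered bases and width of their peaks known. Peak number, covered bases and peak width at gene ends are therefore given as a description, with no test.

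The study mapped H3K27ac and H3K4me3 in mouse late 2-cell embryos, 36 h after fertilization, with a native form of ChIP-seq made for very small inputs, in which chromatin is not crosslinked. Control embryos had received H2O as zygotes, and mutant embryos had received mRNA of an Hdac1 mutant. The labels name no strain, no mutated residue, no number of pooled embryos and no alteration of the embryos' own Hdac1 gene. Each of the 4 combinations of mark and injection had 2 immunoprecipitation and 2 input libraries, and 1 deposited peak list for both immunoprecipitation libraries. The H3K27ac lists differed in size, with 77349 peaks in control and 122487 in mutant, and the H3K4me3 lists held 86798 and 85780. The median gene with a peak at its ends had a widest H3K27ac peak of 7609 bp in control and 4179 bp in mutant, and a widest H3K4me3 peak of 5281 and 7033 bp, which the single widths below can be read against. Replicate error could not be estimated, depth is unknown, and each difference below is one between 2 lists. In pooled embryos, a mark present in fewer cells and a weaker mark in every cell cannot be told apart.

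Glycolysis splits glucose into pyruvate, and lactate dehydrogenase interconverts pyruvate and lactate. Cleavage-stage mouse embryos are known to rely on pyruvate and lactate, and their use of glucose increases later, towards the blastocyst. Many glycolytic enzymes are made in nearly every cell type, and their genes usually start in sequence rich in CpG dinucleotides, a feature tied to H3K4me3. H3K27ac marks active promoters and enhancers and is removed by histone deacetylases, among them the product of Hdac1.

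The sequences that carry the comparison are those at the annotated starts of these genes, because the lists differed in which starts lay inside an H3K27ac peak. The RefSeq promoter table of GRCm38.p6 held 17 starts for the 10 genes. For 8 of them the 100 bases before the start are printed 5′ to 3′ in the direction of transcription, with CpG dinucleotides in capitals. The first 3 lay inside an H3K27ac peak in the control list alone, Pfkl in both lists, and the starts of Aldoa and Pkm in the mutant list alone. The Hk1 starts contrast a start without either mark and one with both in the control lists.
Gapdh: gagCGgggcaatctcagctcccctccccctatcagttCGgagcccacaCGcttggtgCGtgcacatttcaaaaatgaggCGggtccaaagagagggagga
Gpi1: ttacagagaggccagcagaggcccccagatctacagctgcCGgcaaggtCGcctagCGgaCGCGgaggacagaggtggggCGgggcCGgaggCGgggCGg
Tpi1: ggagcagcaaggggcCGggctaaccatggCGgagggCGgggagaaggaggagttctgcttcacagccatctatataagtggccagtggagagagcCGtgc
Pfkl: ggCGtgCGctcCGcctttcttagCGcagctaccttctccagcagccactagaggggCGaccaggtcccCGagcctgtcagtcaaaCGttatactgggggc
Aldoa middle start: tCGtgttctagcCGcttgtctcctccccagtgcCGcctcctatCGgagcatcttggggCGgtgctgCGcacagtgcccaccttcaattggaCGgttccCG
Pkm inner start: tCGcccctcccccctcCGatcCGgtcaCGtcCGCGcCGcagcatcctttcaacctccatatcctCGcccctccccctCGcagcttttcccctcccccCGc
Hk1 outer start: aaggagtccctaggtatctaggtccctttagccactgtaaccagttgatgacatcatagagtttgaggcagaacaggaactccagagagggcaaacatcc
Hk1 inner start: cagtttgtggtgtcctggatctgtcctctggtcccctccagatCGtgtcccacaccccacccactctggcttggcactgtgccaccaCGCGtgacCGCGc

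These stretches lie at chr6:125165774-125165873 (minus strand) for Gapdh, chr7:34230337-34230436 (minus strand) for Gpi1, chr6:124814159-124814258 (minus strand) for Tpi1, chr10:78009808-78009907 (minus strand) for Pfkl. The others lie at chr7:126799255-126799354 (minus strand) for the Aldoa middle start, chr9:59657127-59657226 (plus strand) for the Pkm inner start, chr10:62379909-62380008 (minus strand) for the Hk1 outer start, chr10:62340422-62340521 (minus strand) for the Hk1 inner start. The printed stretch held 5 CpG dinucleotides at Gapdh, 9 at Gpi1, 4 at Tpi1, 7 at Pfkl, 8 at Aldoa and 10 at the inner start of Pkm. The outer start of Hk1 had 0 and the inner start 5.

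H3K27ac and H3K4me3 differed in how they sat at these starts. In the control H3K27ac list, 7 of the 10 genes had an annotated start inside a peak (Hk1, Gpi1, Pfkl, Tpi1, Gapdh, Ldha and Ldhb), against 36.1% of the 17492 coding genes with a start in the table. In the mutant H3K27ac list it was 3 (Pfkl, Aldoa and Pkm), against 29.3% of all genes. Of the 7 genes with a covered start in control, 6 had none in the mutant list, where the figure over all genes was 48.4%. Of the 3 without one in control, 2 had one in the mutant list, against 16.7% of all genes. H3K4me3 covered a start of 9 of 10 genes in each list, against 67.4% of all genes in control and 63.5% in mutant. The exception was Tpi1 in control and Aldoa in mutant, so 1 of 9 genes went without a covered start from control to mutant (11.4% over all genes) and the 1 gene without one in control had one in mutant (11.8%). Both marks covered a start of the same gene at 6 of 10 genes in control, against 34.5% of all genes, and at 2 of 10 in mutant (Pfkl and Pkm), against 25.7%.

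**Figure D1:**
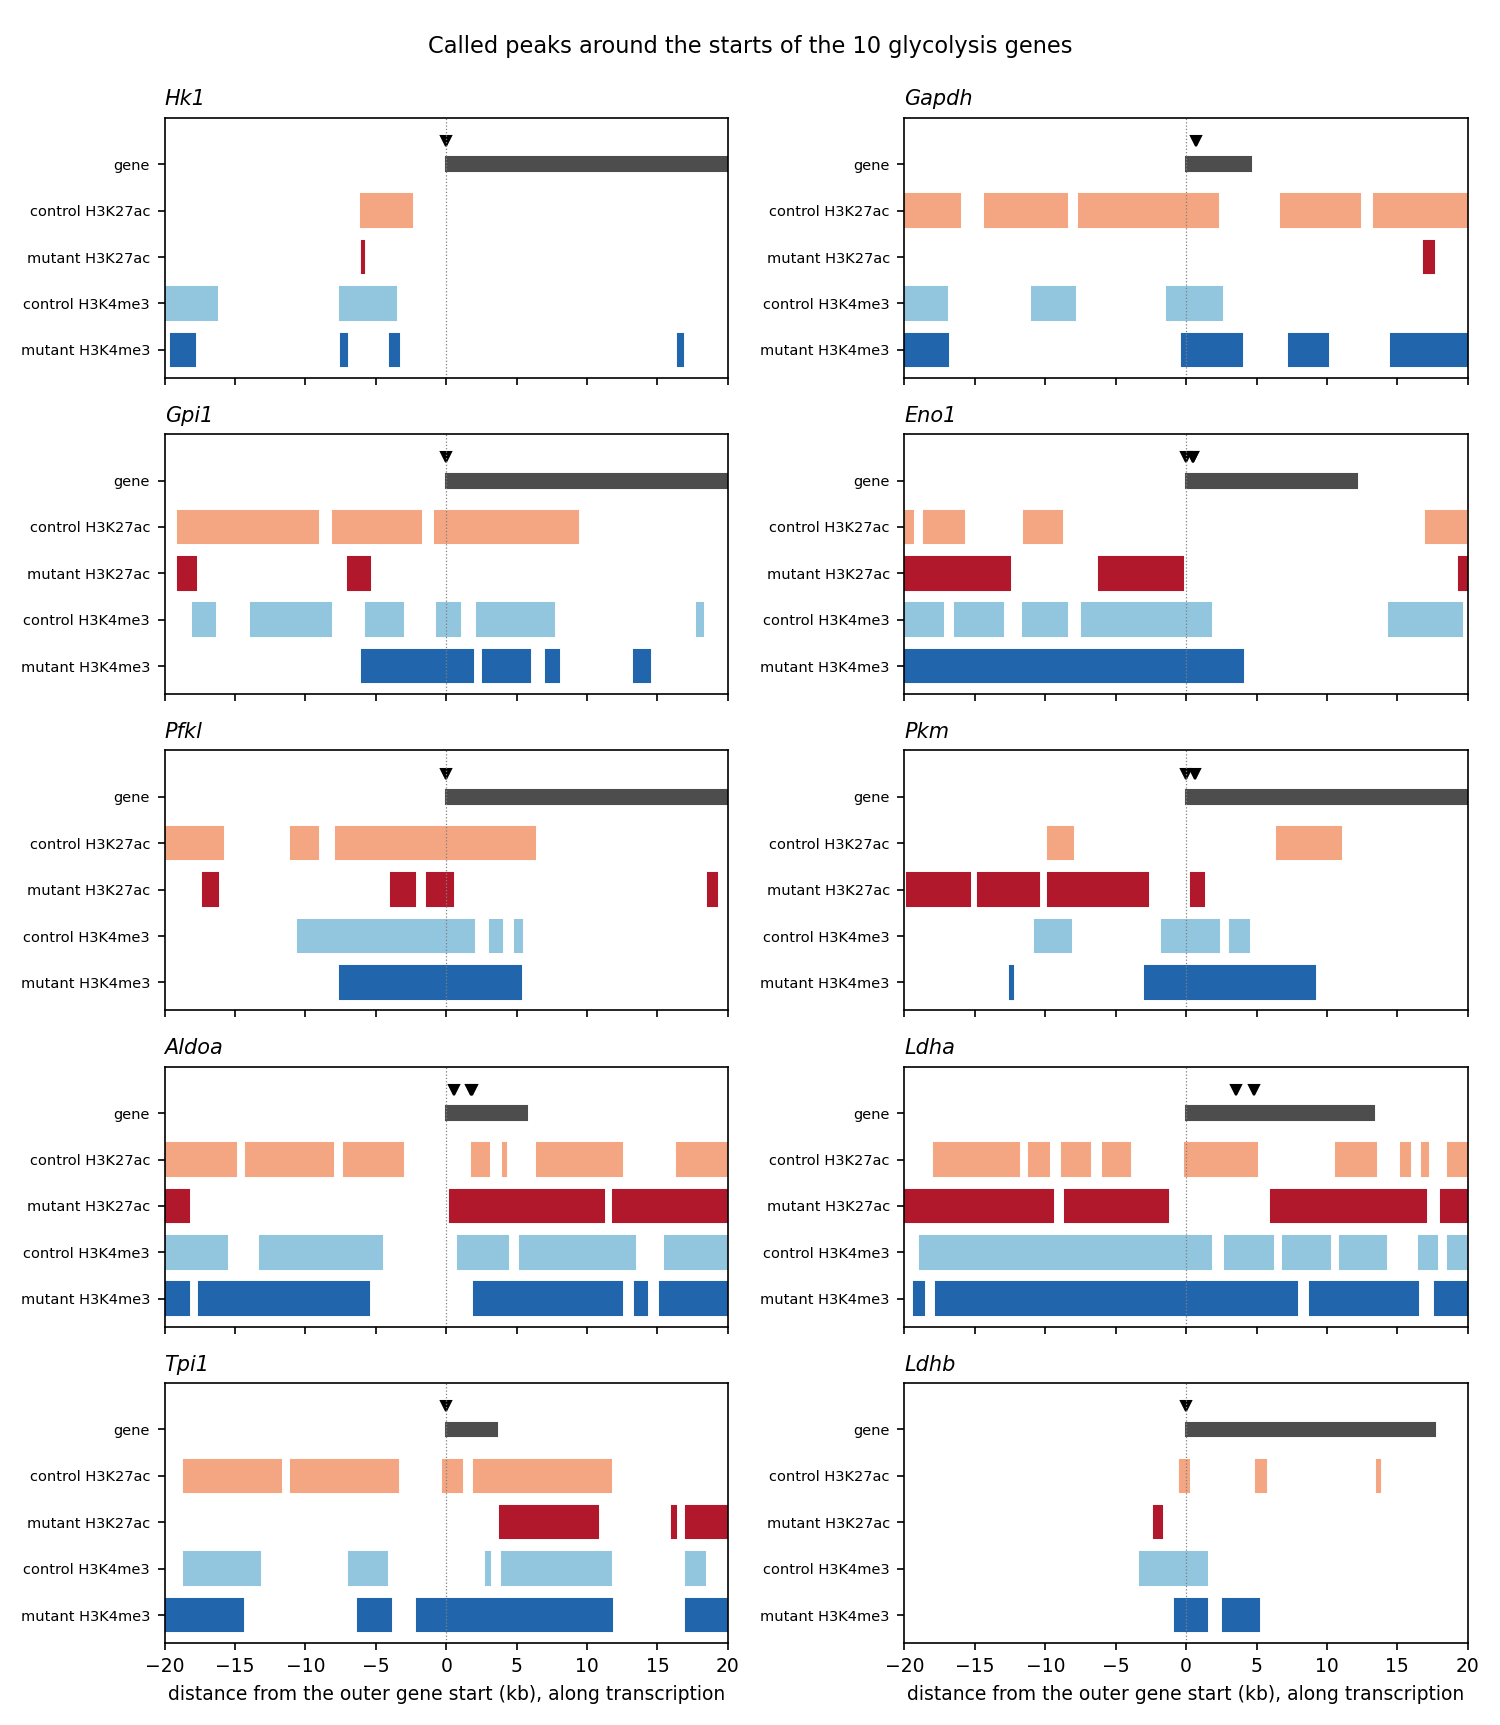
Called peaks of the 4 lists within 20 kb of the outer gene start of each of the 10 genes, drawn along the direction of transcription (horizontal axis in kb). Grey bars are the genes as far as the panel reaches, triangles annotated starts inside the panel (the inner Hk1 start lies beyond it), and coloured bars single peaks; around Gapdh the mutant H3K27ac track is empty except for 1 peak downstream, while H3K4me3 covers the start in both lists.

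Counted within 2 kb of either gene end, the number of H3K27ac-marked genes was the same in both lists, but the genes were not. The equal number did not hold under several other settings, given further below. An H3K27ac peak reached 7 of 10 genes in the control list (54.8% of all coding genes) and 7 of 10 in the mutant list (58.0%). Gpi1 and Gapdh had a peak in control only, that is 2 of the 7 control-marked genes (22.7% over all genes). Eno1 and Pkm had a peak in mutant only, 2 of the 3 genes unmarked in control (34.6%). Pfkl, Aldoa, Tpi1, Ldha and Ldhb had a peak in both lists, and Hk1 in neither. H3K4me3 reached 9 of 10 genes in each list (74.7% and 72.9% of all genes), the same 9, with Hk1 as the exception. Thus 0 of 9 genes were without H3K4me3 in mutant after having it in control, against 8.94% of all genes, and the 1 unmarked gene stayed unmarked, where 19.2% of all such genes had a mutant peak. Both marks met at 7 genes in control (50.9% of all genes) and at 7 in mutant (51.5%).

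**Figure D2:**
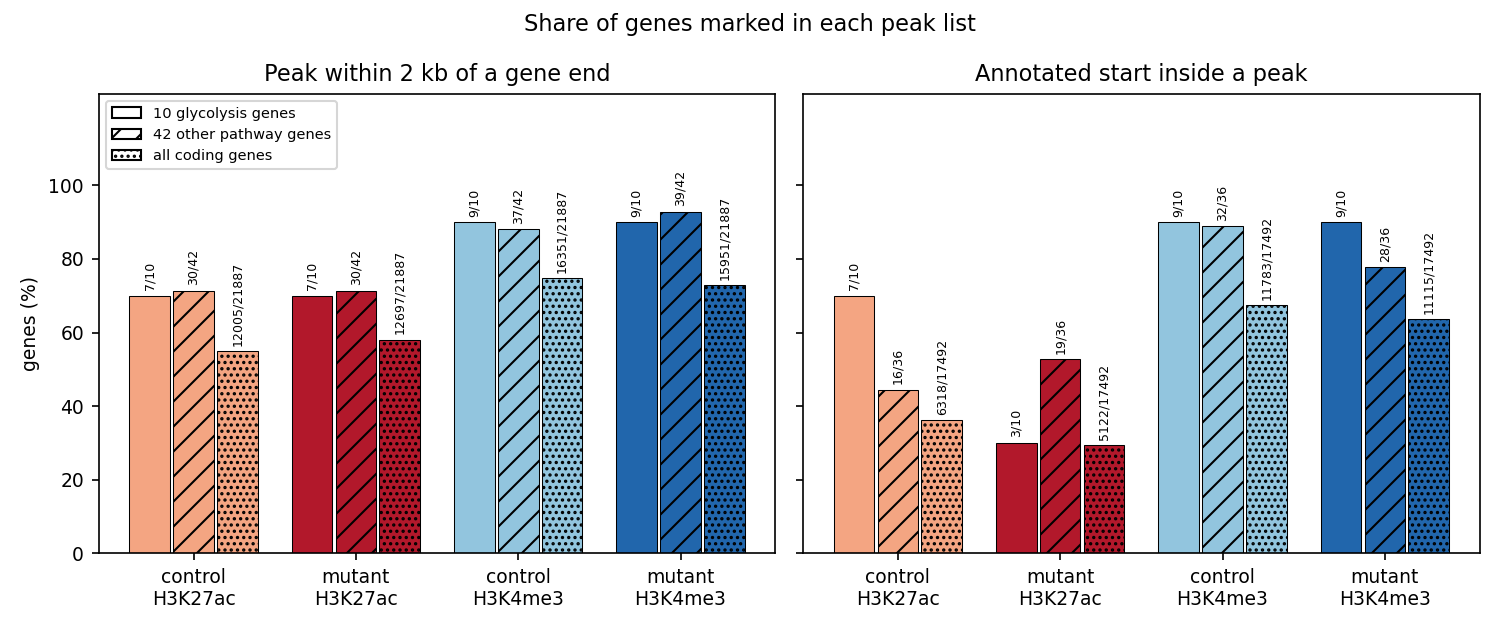
Share of genes (vertical axis, %) with a peak within 2 kb of a gene end (left) and with an annotated start inside a peak (right) in each of the 4 lists, for the 10 glycolysis genes, 42 other genes of the pathway and all coding genes, with counts above the bars. The right panel holds only genes with a start in the promoter table, 36 of the pathway and 17492 coding genes. On the right, the 10 genes stand at 7 in the control and 3 in the mutant H3K27ac list and at 9 in both H3K4me3 lists.

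The upper part of glycolysis turns glucose into triose phosphates. Hexokinase, encoded here by Hk1, phosphorylates glucose on entry. Hk1 spans 111066 bp of chromosome 10 (62268855 to 62379920, minus strand) and was the one gene with no peak of either mark at its ends. The nearest control H3K27ac peak began 2423 bp beyond the gene, just outside the windows, and the nearest control H3K4me3 peak 3545 bp beyond it. Peaks inside the gene numbered 5 in control and 2 in mutant for H3K27ac, and 8 and 6 for H3K4me3. The inner start printed above, at position 62340421, was inside a peak of both marks in control and of H3K4me3 alone in mutant, where the nearest H3K27ac peak to it was 45328 bp away, beyond the gene. H3K27ac covered 15329 bases of the gene body in control and 1791 in mutant. H3K4me3 covered 21572 and 18160 bases of it.

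Gpi1 encodes glucose-6-phosphate isomerase, which makes fructose 6-phosphate (chromosome 7, 34201327 to 34230336, minus strand). Its start lay in a control H3K27ac peak of 10131 bp, and a further peak of 6242 bp reached the start window from the side of Garre1. The windows held 3013 H3K27ac-covered bases in control and 0 in mutant. The mutant list had no H3K27ac peak over 45699 bp around the gene, with the nearest at 5425 bp. H3K4me3 ran the other way in width, with a peak of 1656 bp in control and of 7895 bp in mutant over the same start.

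Phosphofructokinase commits the sugar to glycolysis, and Pfkl encodes its liver type (chromosome 10, 77986947 to 78009807, minus strand). Its start was the only one of the 10 genes covered by H3K27ac in both lists. The control peak of 14139 bp filled all 4001 bases of the start window, whereas the mutant peak of 1859 bp lay entirely inside it. H3K4me3 filled the start window in both lists, with peaks of 12529 and 12890 bp. Neither mark reached the far end of the gene in any list.

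Aldolase cleaves fructose 1,6-bisphosphate, and Aldoa encodes its muscle and ubiquitous form (chromosome 7, 126795234 to 126800994, minus strand). In the mutant list it had the most H3K27ac-covered bases at the gene ends among the 10 genes. Control had 3 H3K27ac peaks with 1768 covered bases at the gene ends, and mutant 1 peak of 10929 bp with 5705 covered bases. The mutant peak covered all 3 annotated starts. The nearest control peak ended 12 bp short of the innermost start, so a small shift in its border would alter the count of covered starts. H3K4me3 covered 4311 bases in control and 4009 in mutant, and the mutant peak ended 177 bp from the innermost start. At both lists' far end the peaks ran into Ppp4c, which encodes a phosphatase subunit.

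Triosephosphate isomerase, encoded by Tpi1, interconverts the triose phosphates that aldolase releases. At Tpi1 (chromosome 6, 124810586 to 124814158, minus strand) the marks differed in opposite directions. The start lay inside a control H3K27ac peak of 1326 bp, and 3785 bp from the nearest mutant one. For H3K4me3 it was 2839 bp from the nearest control peak and inside a mutant peak of 13872 bp. H3K27ac covered 4956 bases of the windows in control and 1788 in mutant, all of the latter at the far end beside Spsb2. H3K4me3 covered 1843 bases in control and 7573, the whole of the joined windows, in mutant, where the peak also reached Spsb2 and Usp5.

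The lower part of the pathway yields ATP and pyruvate. Glyceraldehyde-3-phosphate dehydrogenase, the product of Gapdh, oxidises the triose phosphate. Gapdh lies on chromosome 6 (125161852 to 125166467, minus strand). The control H3K27ac peak of 9915 bp covered its start and filled the 4001 bases of the start window, and it reached the neighbouring Ncapd2, which encodes a condensin subunit. In the mutant list the gene lay in a stretch of 38841 bp without an H3K27ac peak. The nearest was 12280 bp away, farther than at all but 15.6% of coding genes. The lists also differed away from the gene. Between 10 and 50 kb on either side of the gene, H3K27ac covered 91.7% of bases in control and 25.8% in mutant. H3K4me3 at Gapdh was nearly alike in size, with single peaks of 3934 and 4288 bp and 3356 and 3674 covered bases. The mutant H3K4me3 peak lay further into the gene, over 86.2% of its length against 55.9% in control.

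Enolase makes phosphoenolpyruvate, and Eno1 encodes its widespread form (chromosome 4, 150236708 to 150248879, plus strand). No control H3K27ac peak lay over or within 4899 bp of the gene. A mutant H3K27ac peak of 5966 bp came up to 197 bp before the outermost start without covering it. H3K4me3 covered all 3 annotated starts in both lists, in a peak of 9182 bp in control and of 25755 bp in mutant. The mutant peak was wider than the widest H3K4me3 peak of 96.3% of marked genes, and the control peak than 72.3%.

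Pyruvate kinase, encoded by Pkm, releases pyruvate. Pkm (chromosome 9, 59656576 to 59679372, plus strand) had no control H3K27ac peak at its ends, although a peak of 4549 bp lay within the gene. The mutant list had a peak of 918 bp over the inner start and one of 1679 bp at the far end, shared with Gramd2. H3K4me3 covered both starts in both lists, in peaks of 4016 bp in control and 12028 bp in mutant. Its covered bases at the gene ends were 6449 in control and 5442 in mutant, since the far-end peak reached less of its window in mutant.

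Lactate dehydrogenase is built from the subunits encoded by Ldha and Ldhb. Ldha lies on chromosome 7 (46842274 to 46855627, plus strand), and both annotated starts, at 46845804 and 46847082, lie well inside the outer border of the gene. A control H3K27ac peak of 5117 bp covered both starts. In mutant the starts lay 2482 and 1204 bp from the nearest H3K27ac peak, in a gap between peaks of 7278 and 11022 bp. The covered bases at the gene ends did not show this, at 4366 in control and 4699 in mutant. At its ends the widest H3K4me3 peak spanned 20658 bp in the control list, where it reached Gtf2h1, and 25661 bp in the mutant list. The mutant peak covered both starts, while the control one ended before them and they lay in another H3K4me3 peak within the gene.

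Ldhb (chromosome 6, 142490249 to 142507957, minus strand) had the lowest widest-peak width for H3K27ac among the marked genes, in both lists. A control peak of 635 bp covered its start, and a mutant peak of 601 bp lay 1677 bp before it. Fewer than 10% of marked genes had a narrower widest peak, 9.53% in control and 9.29% in mutant, and the mutant call did not hold under stricter settings. H3K4me3 covered the start in peaks of 4782 bp in control and 2248 bp in mutant.

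**Figure D3:**
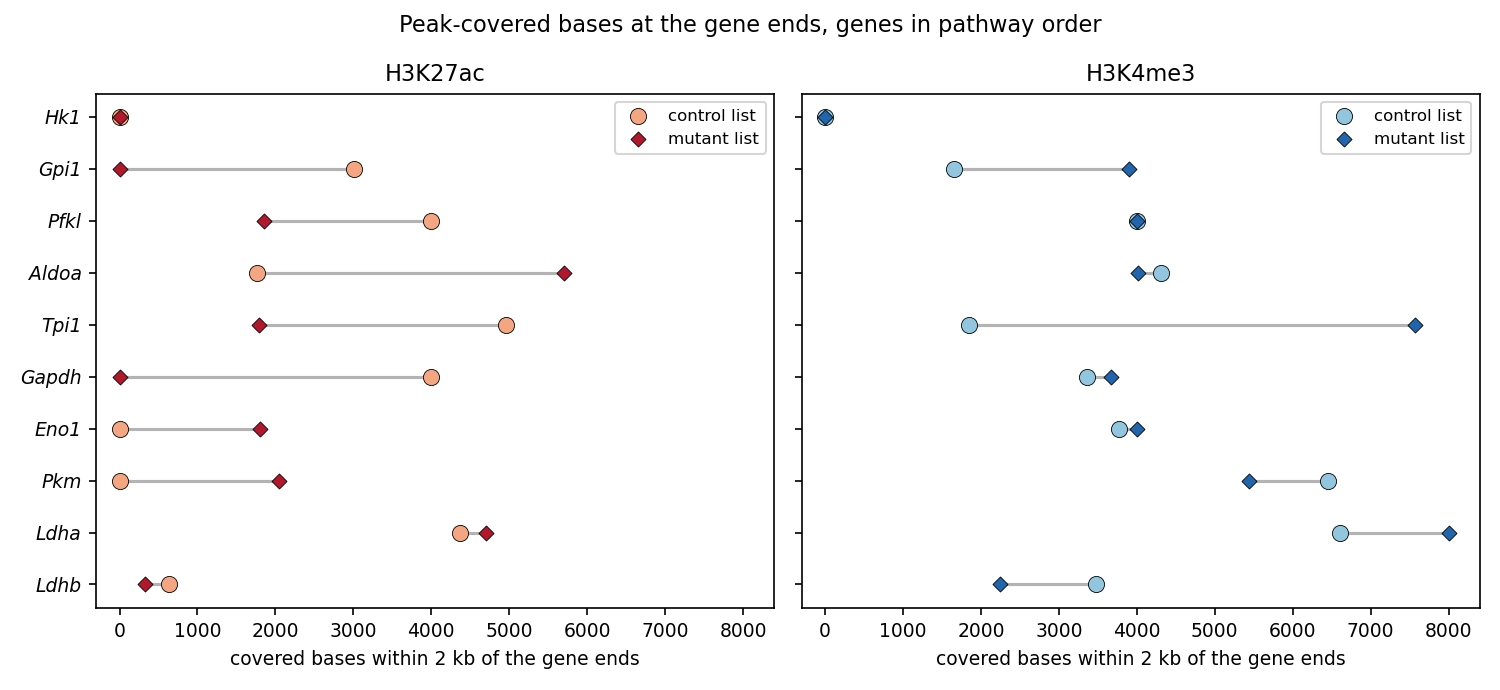
Bases covered by peaks within 2 kb of the gene ends (horizontal axis) for the 10 genes in pathway order, for H3K27ac (left) and H3K4me3 (right). Circles are the control list, diamonds the mutant list, 1 value each; Gpi1 and Gapdh are at 0 for H3K27ac in mutant, Aldoa has 1768 and 5705 bases, and Tpi1 has the largest H3K4me3 difference, 1843 against 7573.

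Summed over the 10 genes, H3K27ac covered 22740 bases at the gene ends in control and 18219 in mutant, a ratio of 0.801, where all coding genes gave 0.860. The start side and the far end differed in direction. On the start side H3K27ac covered 15305 bases in control and 7307 in mutant, a ratio of 0.477, against 0.829 over the coding genes with a known strand. At the far end it covered 7493 and 10912 bases, a ratio of 1.46, against 0.880. At the far end Aldoa had 1595 covered bases in control and 4001 in mutant, Ldha 2268 and 4001, and Pkm 0 and 1122, while Tpi1 had 3630 and 1788. For H3K4me3 the totals were 35474 and 42849 bases, a ratio of 1.21 against 1.03 over all genes. The ratio was 1.14 on the start side and 1.40 at the far end, against 1.03 and 1.02. With 1 gene left out at a time, the H3K27ac ratio ranged from 0.597 without Aldoa to 0.972 without Gapdh, and the H3K4me3 ratio from 1.05 without Tpi1 to 1.29 without Pkm.

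Covered bases were lower in mutant at 5 of the 9 genes with H3K27ac in either list (52.7% over all such genes) and higher at 4 (45.5%). For H3K4me3 they were lower at 3 of 9 (41.0%), higher at 5 (52.3%) and equal at Pfkl. The median over the 10 genes was 2391 H3K27ac bases in control and 1796 in mutant, against 403 and 581 over all coding genes. For H3K4me3 it was 3627 and 4001 bases, against 2939 and 3213.

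The lists also shared different amounts of sequence. Of the H3K27ac bases at these gene ends in control, 33.8% were also covered in mutant, where all coding genes gave 49.5%. For H3K4me3 the share was 86.6%, against 78.6%. Gapdh, Gpi1 and Ldhb shared 0 H3K27ac bases between the lists, and Aldoa shared all of its 1768 control bases. The bases under both marks made up 75.9% of the H3K27ac bases in control and 88.9% in mutant, against 75.8% and 68.3% over all genes. They made up 48.7% of the H3K4me3 bases in control and 37.8% in mutant, against 52.5% and 39.6% over all genes.

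**Figure D4:**
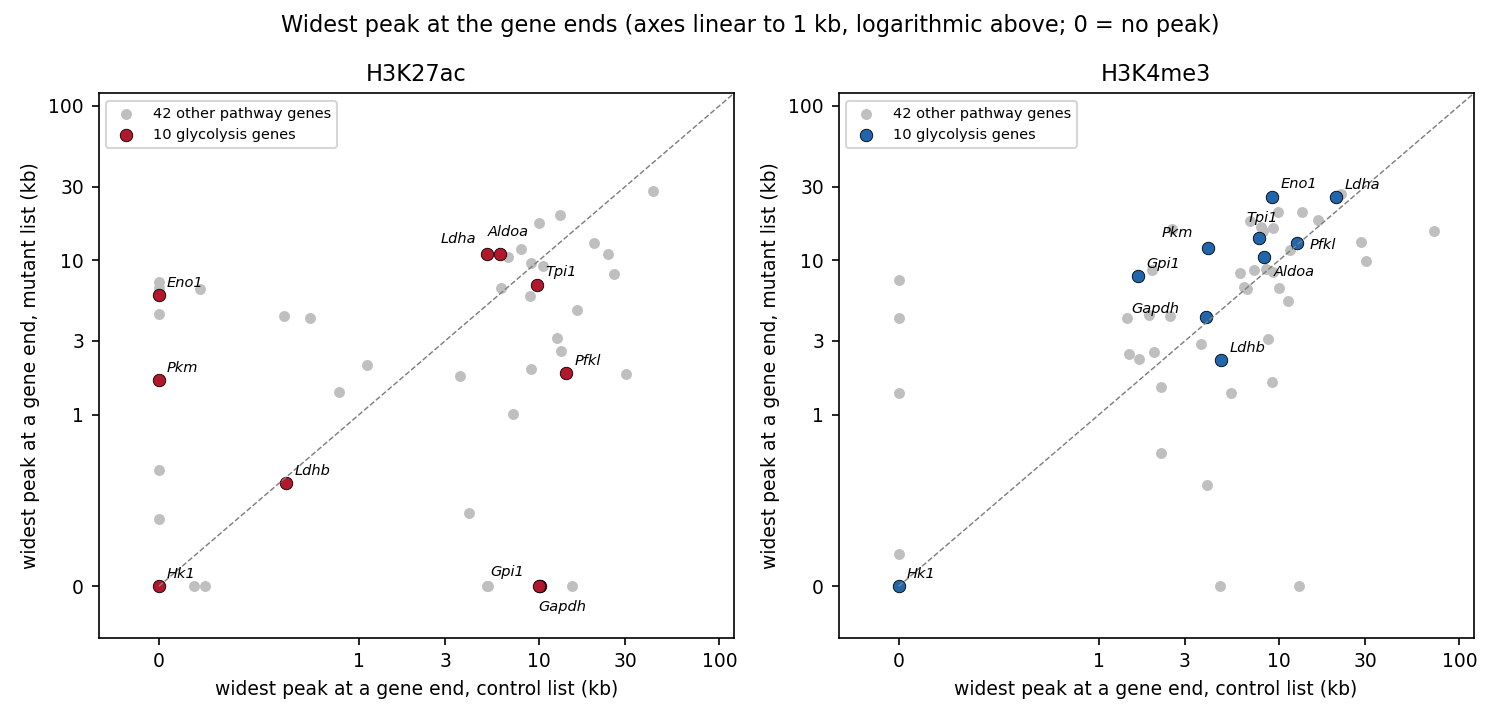
Width of the widest peak at the gene ends in the control (horizontal) and mutant (vertical) lists, in kb on axes that are linear to 1 kb and logarithmic above, for H3K27ac (left) and H3K4me3 (right). Coloured points are the 10 glycolysis genes and grey points the 42 other pathway genes, with the dashed line marking equal width; for H3K4me3, 8 of 9 marked genes lie above the line and Ldhb below it.

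The widest H3K4me3 peak was wider in mutant at 8 of 9 genes, where this held for 62.6% of all genes marked in both lists, and narrower at 1, Ldhb (37.4%). Aldoa had widest H3K4me3 peaks of 8199 and 10496 bp, and Tpi1 of 7753 and 13872 bp. For H3K27ac the widest peak was narrower in mutant at 3 of the 5 genes marked in both lists (67.2% over all genes), namely Pfkl, Tpi1 and Ldhb. At Tpi1 these were the peaks that reached Spsb2, of 9767 and 6960 bp, and not the control peak over its start. At Ldhb they were separate peaks, of 635 and 601 bp. The widest peak was wider in mutant at the other 2, Aldoa and Ldha (32.8%). At Ldha the control peak of 5117 bp lay over the starts and the mutant one of 11022 bp beyond them.

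The start sequences were compared over the 300 bases from 250 before to 50 after each start. Over the 10 genes these held between 0 and 30 CpG dinucleotides, against a median of 13 over the 21263 starts of coding genes. The outer starts of Hk1, with 1, and of Aldoa, with 0, were the poorest, and neither was inside an H3K4me3 peak in any list. Of all starts with fewer than 5 CpG, 15.7% were inside a control H3K4me3 peak and 17.4% inside a mutant one. Of the 12 starts of these genes with 15 or more, 11 were inside a control and 10 inside a mutant H3K4me3 peak, against 98.0% and 91.1% of all such starts. The exceptions were the start of Tpi1 in control and the 2 inner starts of Aldoa in mutant. For H3K27ac, 6 and 4 of these 12 starts were covered, against 52.0% and 37.3%. A search of both strands found the GC box letters GGGCGG at 9 of the 17 starts, against 46.2% of all starts, and CCAAT at 7 of the 17, against 38.2%. The stretches of the 2 inner starts overlap at Aldoa and at Eno1, so these starts are not separate counts. By gene, GGGCGG was found at 7 of 10 and CCAAT at 4, with no share by gene computed over all coding genes. The letters TATAAA were found at 0 of the 17 starts, against 12.6% of all starts, and CACGTG at 1 start of Ldha, against 7.84%. Only these exact letters were sought, and variants of a motif were not counted. Gapdh and Hk1 had none of these 4 motifs at their starts.

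The other genes of the pathway gave a different count at the starts. The list held 42 genes: 18 other enzymes and isozymes, 6 transporters, 6 regulators and 12 genes of pyruvate entry into mitochondria. At gene ends, 30 of 42 had H3K27ac in each list, against 54.8% of all genes in control and 58.0% in mutant. Of the 30 marked in control, 5 had no mutant peak (22.7% over all genes), and of the 12 unmarked in control, 5 had one (34.6%). Of the 36 with a start in the table, 16 had it inside a control H3K27ac peak and 19 inside a mutant one, against 36.1% and 29.3% of all genes, where the 10 genes above numbered 7 and 3. That difference between the gene lists was not tested. Among the 16, 4 had no covered start in mutant, against 48.4% of all genes, and of the 20 without one in control 7 had one in mutant, against 16.7%. H3K4me3 covered a start of 32 of the 36 in control and 28 in mutant, against 67.4% and 63.5% of all genes. It reached the ends of 37 of the 42 in control and 39 in mutant, against 74.7% and 72.9%.

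By class, H3K27ac marked 13 of the 18 other enzymes in control and 11 in mutant, and 7 and 10 of the 12 genes of pyruvate entry. It marked 5 and 4 of the 6 transporters, and 5 of the 6 regulators in each list. The shares over all genes were 54.8% and 58.0%. The widest control-only peak, 15136 bp, lay at Pdha1, which encodes a subunit of pyruvate dehydrogenase. The others named by width were Slc2a4, the insulin-responsive glucose transporter, with 5185 bp, and Pgam2, the muscle phosphoglycerate mutase, with 5145 bp. Mutant-only peaks of 7224 bp at Pdk3, a kinase that inhibits pyruvate dehydrogenase, 6575 bp at Slc2a1, the widespread glucose transporter, and 4459 bp at Dlat, another pyruvate dehydrogenase subunit, were the widest in that direction. For H3K4me3, Pgk1, the X-linked phosphoglycerate kinase, had a control peak of 12899 bp and none in mutant, and Dld had one of 4708 bp and none. Hk3, Pgk2 and Eno4 had H3K4me3 in mutant only, with widest peaks of 7391, 1387 and 190 bp.

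RefSeq names pseudogenes of Gapdh, Aldoa, Ldha and Ldhb and a close copy of Eno1, Eno1b. Reads of such copies can be placed at the parent gene's exons or the reverse, and the part of this in the peaks described was not tested.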

How the data were processed

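The authors deposited 4 lists of called peaks, each covering both immunoprecipitation libraries of its group. A line of a list gives a chromosome and 2 positions, without score, height or p-value. Per the submitters' processing notes, the tools included Trimmomatic, Bowtie2, SAMtools, Picard, MACS2 and deepTools, and the builds named were mm10 and GRCm38. Their settings, the peak threshold, the use of inputs and whether libraries were pooled are not given in the sources used here. Different calling limits or depths between lists can alter how many peaks are called and how wide they are.

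Peaks on chromosomes 1 to 19, X and Y were used, 77349 in the control and 122487 in the mutant H3K27ac list. In the control H3K27ac list, only 21631 of the 21887 coding genes lay on a chromosome with a peak. The others counted as unmarked in that list. In the other lists all 21887 lay on such a chromosome. Gene positions and starts came from RefSeq tables of GRCm38.p6, and 17492 of 21887 coding genes had a start in the promoter table. A gene was marked when a peak reached by at least 1 bp the windows of 2 kb on each side of its ends. A start was covered when it lay inside a peak. Intervals were computed in Python 3.11.15 with numpy 2.4.6, and the functions were checked on simulated intervals. Positions are 1-based.

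With 1 list per group, no test was made. The genes, the pathway list and the measures at annotated starts were chosen with earlier results of these data known. Of the pathway list, up to 6 genes per mark with a peak in 1 condition only were named, by width, except 1 that is not reported here. Neighbouring genes were named where a peak of the 10 genes reached them or, in the closing section, within 10 kb, a choice made after their values were seen.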

Additional observations from a re-analysis of the deposited data

How the results depend on the processing

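No paired analysis was possible because the libraries of a group share a single list, and for the same reason no replicate could be left out. The lists hold no score, so the wider 50% of each list stood in for a stricter threshold. The alternatives for annotated starts were chosen after seeing the data. Of 160 recomputed counts and ratios, 150 stayed within 1.5 times the reported value and 10 did not, and no ratio crossed 1. Restricted to the start side, the H3K27ac ratio of covered bases was 0.477 in place of 0.801. With windows of 5 kb, H3K27ac was found in mutant only at 1 gene in place of 2, since Eno1 then had a control peak, and the widest H3K4me3 peak was narrower in mutant at 2 genes in place of 1. H3K4me3 in mutant only was counted at 1 gene in place of 0 on the start side (Tpi1) and in the wider 50% of each list (Gpi1). Covered starts with H3K27ac in mutant only numbered 1 in place of 2 for the outermost start and for the wider 50%. With the outermost start only, H3K27ac covered a start of 6 genes in control and 2 in mutant, in place of 7 and 3. For H3K4me3, covered starts in mutant only numbered 2 in place of 1 for the wider 50%, and those in control only 0 in place of 1 for a peak within 500 bp and for the outermost start. The causes of these shifts were not tested. The equal number of H3K27ac-marked genes at gene ends, 7 in each list, was not kept by all settings. Control and mutant had 7 and 6 with windows of 1 kb and on the start side. Lists of equal size and a reach of at least 500 bp also gave 7 and 6, and windows of 5 kb 9 and 8. Of the single-gene states at gene ends, 150 of 160 were kept. Gapdh and Gpi1 had H3K27ac in control only, and Pkm in mutant only, under all 9 settings. All settings used the same lists. Ldhb lacked the mutant H3K27ac peak with windows of 1 kb, with lists of equal size and with a reach of at least 500 bp, and had no H3K27ac peak in either list among the wider 50%. With windows of 5 kb, Hk1 had both marks in both lists. Depth is unknown, so the absence of a peak does not show the absence of the mark.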

Other observations

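The coding genes within 10 kb of the 10 glycolysis genes were looked at after their values had been seen. Of these 14 genes, H3K27ac reached the ends of 11 in the control list and of 11 in the mutant list, against 54.8% and 58.0% of all coding genes. Iffo1, which ends next to Gapdh, and Usp5, which lies beside Tpi1, had it in control only. At Iffo1 the widest control H3K27ac peak measured 27118 bp and at Usp5 6871 bp. Ncapd2, on the other side of Gapdh, had peaks of both lists, with a widest of 30776 bp in control and 3538 bp in mutant. Tacr2 and Gramd2 had H3K27ac in mutant only, the Gramd2 peak being the one described at the far end of Pkm. H3K4me3 was found at 12 of the 14 in control and at all 14 in mutant, against 74.7% and 72.9% of all coding genes, Iffo1 and Tacr2 being the additions. Ldhc, the testis form of lactate dehydrogenase beside Ldha, had a widest H3K27ac peak of 24176 bp in control, and the mutant peak of 11022 bp at its end was the one described at Ldha.

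H3K27ac covered a larger share of the surroundings of the 10 genes than of their ends. Between 10 and 50 kb from the genes it covered 46.1% of bases in control and 34.6% in mutant, and in the gene-end windows 28.6% and 22.9%. Over all coding genes the order was the opposite, with 23.0% and 19.9% in the surroundings and 26.2% and 22.6% at the ends. For H3K4me3 the 10 genes had 41.4% and 47.9% in the surroundings and 44.6% and 53.8% at the ends, against 23.5% and 24.3%, and 37.9% and 39.0%, over all coding genes. These are shares over the 10 genes together. In the surroundings, single genes exceeded the share over all genes at 8 of 10 for H3K27ac in each list, with Hk1 and Ldhb below it. For H3K4me3 it was 9 in control, with Ldhb below, and 7 in mutant, with Gpi1, Pkm and Ldhb below.

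The start of Tpi1 was 2839 bp from the nearest control H3K4me3 peak while lying inside an H3K27ac peak. The 300 bases around it held 15 CpG dinucleotides, the lowest number in the class of 15 or more. Of all coding-gene starts in that class, 98.0% lay inside a control H3K4me3 peak, and of those with 5 to 14 it was 63.5%.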
